A study of Xenopus laevis with 72 samples.

Results

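At 5.5 hours post fertilization (hpf), Xenopus laevis embryos injected with a morpholino against cxxc1 (Cxxc1 MO) were compared with embryos that received a control morpholino (Ctrl MO). The comparison holds the 12 libraries that the labels give to these groups at this time, 6 Cxxc1 MO and 6 Ctrl MO, of 72 in the series. All embryos were wild type, injected at the 1-cell stage with 9.2 nl of a 1 mM solution and kept at 18 °C, and non-injected embryos (NI Ctrl, 6 libraries) and Kmt2b MO embryos (6 libraries) of the same time were used beside them. Each group came from 2 frogs, the biological replicates, with 3 libraries of 3 whole embryos from each, which the study calls technical replicates. The p-values therefore rest largely on the spread between sets of embryos of the same frog.

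CXXC1, also called CFP1, binds unmethylated CpG dinucleotides and is a subunit of the SET1 complexes, which methylate lysine 4 of histone H3 (H3K4) at CpG-rich promoters. KMT2B is the catalytic subunit of another H3K4 methyltransferase complex. At 5.5 hpf the blastula still lives largely on RNA that was loaded into the egg, and transcription from its own genome is starting. A frog gene named .L or .S is one of a pair of homeologs, copies that descend from the parental genomes joined in the allotetraploid ancestor of X. laevis.

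Cxxc1 MO embryos differed from Ctrl MO embryos at this time in few genes, and nearly all of these were higher. Of 18914 genes tested, 82 were higher (0.434%) and 4 were lower (0.0211%) in Cxxc1 MO embryos at an adjusted p under 0.05 (limma on log2(TPM + 1), biological replicate as covariate). The 4 lower genes include LOC121402315, which reached the level needed for testing only through Ctrl MO libraries, so its place among them is a description. TPM is a level per transcript length, scaled so that every library has the same sum, so a value is a share and not an amount. The largest group was 28 genes of the cytoplasmic ribosome. The other leading genes were upf3b.S, which encodes a factor of nonsense-mediated mRNA decay, and both homeologs of pim1, which encodes a serine/threonine kinase. The log2 changes of the 82 genes ran from 0.23 to 0.98 with a median of 0.43, and 24 of them reached 0.5. In 71 of the 82, all 3 Cxxc1 MO libraries lay above all 3 Ctrl MO libraries in both biological replicates, which was true of 1.67% of all genes tested, while the opposite order was found in 0.0476%. The 82 had been selected for higher values in these same Cxxc1 MO libraries, so the count of 71 is a description. At an unadjusted p under 0.05, 1426 genes were higher (7.54%) and 92 were lower (0.486%). The split at an unadjusted p changed with the scale of the values, while most genes at an adjusted p stayed higher. When each library was centred on its median gene, 780 genes were higher and 915 lower at an unadjusted p under 0.05. At an adjusted p under 0.05, 66 were higher and 15 lower. With protein-coding genes only, rescaled, 892 were higher and 545 lower at an unadjusted p under 0.05. Of the genes at an adjusted p under 0.05 in that fit, 93.6% were higher.

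**Figure D1:**
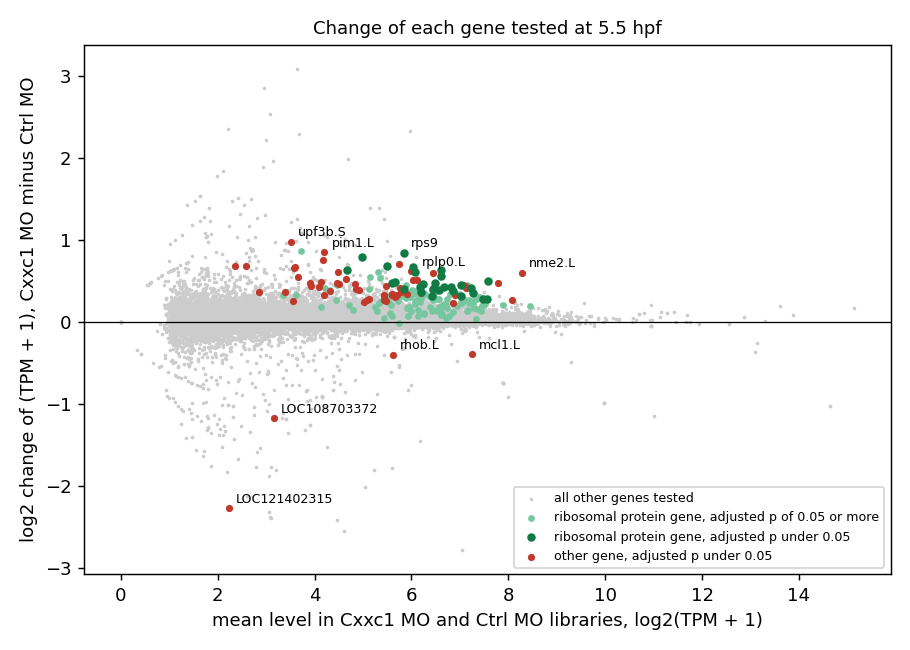
Log2 change of (TPM + 1), Cxxc1 MO minus Ctrl MO, of each of the 18914 genes tested at 5.5 hpf (y axis) against its mean level in these libraries (x axis), with ribosomal protein genes in green and other genes at an adjusted p under 0.05 in red. The green points lie above 0 almost without exception, and 4 red points lie below it. Among these 4 is LOC121402315, which reached the level needed for testing only through Ctrl MO libraries.

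upf3b.S (chromosome 8S, 68214241 to 68224067, assembly 10.1) had the largest positive change among the genes at an adjusted p under 0.05. In biological replicate 1 it had 7.32, 8.9 and 10.2 TPM in Cxxc1 MO libraries, against 5.56, 4.39 and 5.18 TPM in Ctrl MO libraries. In biological replicate 2 it had 19.1, 17.6 and 23.3 TPM in Cxxc1 MO libraries, against 7.23, 7.16 and 8.83 TPM in Ctrl MO libraries. The groups did not overlap within either frog, and the log2 change was 0.98 ± 0.14 (SE, 6 libraries against 6, adjusted p 0.000599, limma). NI Ctrl libraries had 4.41 to 6.73 TPM, below every Cxxc1 MO library. Its homeolog upf3b.L did not pass the test (log2 change -0.02 ± 0.08, adjusted p 0.996), with 14.8 ± 1.60 TPM in Cxxc1 MO libraries and 15.1 ± 2.55 TPM in Ctrl MO libraries (SD, n = 6 each). Of 29 tested genes of nonsense-mediated decay, upf3b.S was the only one at an adjusted p under 0.05 (3.45%), and the median log2 change of the list was 0.02 against 0.04 for all genes tested.

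Both copies of pim1, a kinase gene first known from sites of proviral insertion in mouse lymphomas, were higher. pim1.L (chromosome 4L, 137466268 to 137476787) had 16.7, 21.1 and 20.6 TPM in Cxxc1 MO libraries of biological replicate 1 and 26.8, 26.0 and 25.2 TPM in those of biological replicate 2. Ctrl MO libraries had 11.7, 13.6 and 9.58 TPM and 11.3, 12.5 and 13.7 TPM. The lowest Cxxc1 MO library was above the highest Ctrl MO library, with a log2 change of 0.85 ± 0.10 (adjusted p 4.02e-05, limma). pim1.S (chromosome 4S, 116261910 to 116271893) had 8.64 to 10.1 TPM in Cxxc1 MO libraries of biological replicate 1, against 5.65 to 7.36 TPM in Ctrl MO libraries. The other frog, biological replicate 2, gave 16.2 to 21.0 TPM in Cxxc1 MO libraries and 8.55 to 11.5 TPM in Ctrl MO libraries, and the log2 change over both was 0.67 ± 0.09 (adjusted p 0.000599).

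**Figure D2:**
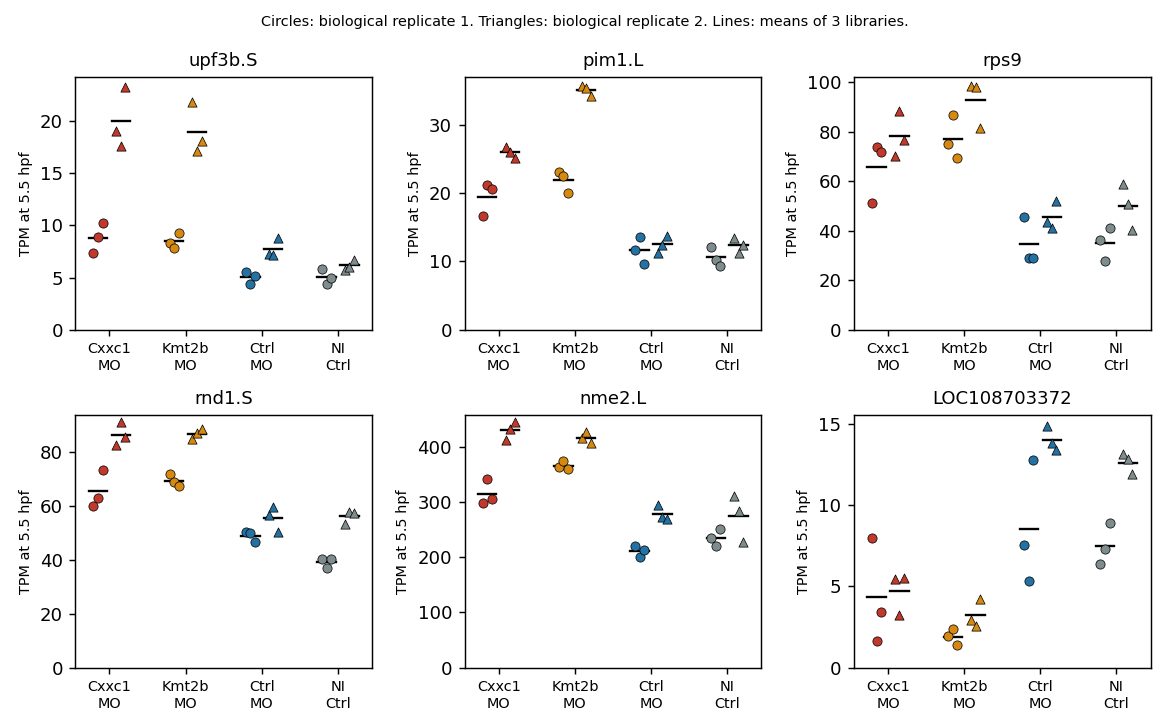
TPM at 5.5 hpf of 6 genes in every Cxxc1 MO, Kmt2b MO, Ctrl MO and NI Ctrl library, with circles for biological replicate 1, triangles for biological replicate 2 and lines for the means of 3 libraries. For upf3b.S, pim1.L, rps9, rnd1.S and nme2.L both knockdowns sit above Ctrl MO within each frog, and for LOC108703372 below it except 1 Cxxc1 MO library at 7.98 TPM.

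Ribosomal protein mRNAs were higher as a group than in Ctrl MO embryos. The cytoplasmic ribosome has a small subunit that reads the mRNA and a large subunit that joins the amino acids, and its protein mRNAs are translated together in vertebrates through a pyrimidine tract at their start. All 130 annotated entries of these genes were tested. 28 were higher (21.5%) and 0 lower at an adjusted p under 0.05, against 0.434% and 0.0211% of all genes tested, and 93 were higher (71.5%) at an unadjusted p under 0.05, against 7.54%. 129 of the 130 changes were positive, with a median log2 change of 0.28 against 0.04 for all genes tested. This list was drawn up after the values had been seen, so its count is a description. The median was 0.30 for the 74 large subunit entries, of which 20 were higher, and 0.24 for the 56 small subunit entries, of which 8 were higher. It was 0.28 in each biological replicate taken alone.

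Among small subunit genes past the threshold, rps9 had the largest change. The entry rps9 (chromosome 7S, 97843870 to 97851396) had 51.4, 73.9 and 72.0 TPM in Cxxc1 MO libraries of biological replicate 1, against 45.5, 29.2 and 29.2 TPM in Ctrl MO libraries. Values of biological replicate 2 were 70.3, 88.4 and 76.6 TPM in Cxxc1 MO libraries and 43.7, 41.3 and 52.0 TPM in Ctrl MO libraries, so that no values overlapped within a frog. The log2 change was 0.84 ± 0.12 (adjusted p 0.000864, limma). The entry rps9.S, elsewhere on the same chromosome (102549079 to 102555855), changed by 0.79 ± 0.14 (adjusted p 0.00795). rps9.L on chromosome 7L changed by 0.86 ± 0.21, with 9.17 to 26.9 TPM in Cxxc1 MO libraries and 3.53 to 12.9 TPM in Ctrl MO libraries, and missed the threshold (adjusted p 0.0714). Reads of such similar copies may have been divided between them, so the separate levels are uncertain. rps23.L, whose protein lies at the decoding centre, changed by 0.67 ± 0.12 (adjusted p 0.00924), and its homeolog rps23.S by 0.45 ± 0.12 (adjusted p 0.110). rps3.S changed by 0.63 ± 0.12 (adjusted p 0.0126) and rps3.L by 0.27 ± 0.08 (adjusted p 0.153).

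Among large subunit genes, rplp0.L, which encodes a protein of the stalk that recruits elongation factors, had the smallest p. It had 65.8, 81.6 and 76.1 TPM in Cxxc1 MO libraries of biological replicate 1, against 53.4, 39.8 and 48.2 TPM in Ctrl MO libraries. In biological replicate 2 it had 87.8, 89.0 and 79.7 TPM in Cxxc1 MO libraries, against 55.9, 57.4 and 57.9 TPM in Ctrl MO libraries. The log2 change was 0.61 ± 0.07 (adjusted p 3.8e-05, limma), and rplp0.S, its homeolog, was also higher (0.40 ± 0.07, adjusted p 0.00362). rpl36.L changed by 0.68 ± 0.15 (adjusted p 0.0335) and rpl30.L by 0.63 ± 0.13 (adjusted p 0.0288). Both calls were sensitive to leaving out a single library, named below with the biological replicate as a Roman numeral. That of rpl36.L still held without library I.3 of Cxxc1 MO or I.1 or II.1 of Ctrl MO. That of rpl30.L still held without any one of these or I.1 of Cxxc1 MO. Leaving out any one of the others among the 12 libraries ended the call (adjusted p up to 0.109 for rpl36.L and 0.0830 for rpl30.L). rplp0.L and others that the ranking by size did not select were named after their values had been seen, which also holds below for genes outside the lists.

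The summed share of ribosomal protein mRNAs was 1.07% to 1.15% of TPM in Cxxc1 MO libraries of biological replicate 1, against 0.853% to 1.01% in Ctrl MO libraries. It was, in biological replicate 2, 1.41% to 1.47% in Cxxc1 MO libraries and 1.15% to 1.23% in Ctrl MO libraries, with no overlap. The rRNA left after depletion moved with the groups as well. It took 6.10% to 11.3% of TPM in Cxxc1 MO libraries of biological replicate 1, against 8.23% to 15.8% in Ctrl MO libraries, and 1.29% to 1.46% in Cxxc1 MO libraries of biological replicate 2, against 4.52% to 6.24% in Ctrl MO libraries. The log2 difference of this share was -1.14 (two-sided exact permutation within frogs, p = 0.02, adjusted over 4 RNA classes 0.08, smallest possible 0.005). With the rRNA entries dropped, the ribosomal protein median was 0.23 above that of all genes, against 0.24 with them kept. With the log2 rRNA share as a covariate, a fit chosen after the values were seen, it was 0.19 above that of all genes (0.15 and -0.04), 4 ribosomal protein genes and 13 genes in all were higher, and 1 was lower. Kmt2b MO libraries had 8.19% to 15.6% rRNA in biological replicate 1. In the other frog they had 1.41% to 3.31%, below all Ctrl MO libraries of that frog. Their ribosomal protein share was 1.08% to 1.28% in the one frog and 1.31% to 1.48% in the other. The part of rRNA in the ribosomal protein difference was not tested beyond these values.

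**Figure D3:**
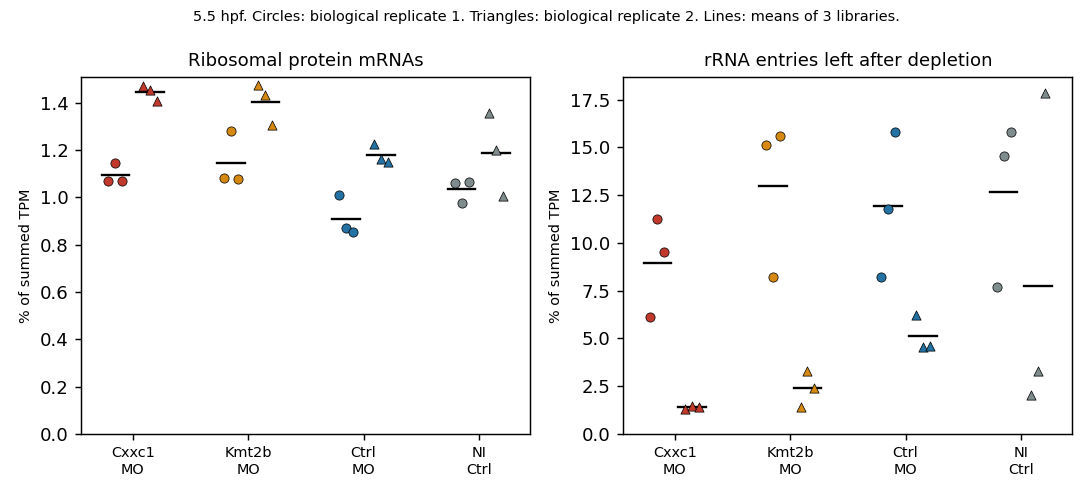
Share of summed TPM (y axes, %) taken by ribosomal protein mRNAs (left) and by rRNA entries left after depletion (right) in each library at 5.5 hpf, with circles for biological replicate 1, triangles for biological replicate 2 and lines for means of 3 libraries. Ribosomal protein mRNA was 1.07% to 1.47% in Cxxc1 MO and 0.853% to 1.23% in Ctrl MO libraries, without overlap within a frog, and rRNA overlapped between these groups only in biological replicate 1.

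The count of ribosomal protein genes depended on single libraries, although the median hardly moved (0.25 to 0.31). It was 15 without library I.2, II.1 or II.2 of Cxxc1 MO or library I.3 of Ctrl MO, 16 without II.3 of Cxxc1 MO or I.2 of Ctrl MO and 18 without II.2 of Ctrl MO. Without the NI Ctrl library II.3, which had the highest rRNA share (17.9%) and enters only the estimate of the spread, it was 43, and 146 genes in all were higher.

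Other gene groups of translation, protein turnover and energy supply were counted in the same way, against 0.434% of all genes tested higher at an adjusted and 7.54% at an unadjusted p under 0.05. Of 119 tested subunits of the respiratory chain and ATP synthase encoded in the nucleus, 3 were higher at an adjusted p under 0.05 (2.52%) and 48 at an unadjusted p under 0.05 (40.3%), with a median log2 change of 0.16. They were atp5me.S, listed as a lncRNA in the annotation (0.76 ± 0.16, adjusted p 0.0297), ndufs4.L of complex I (0.66 ± 0.13, adjusted p 0.0103) and atp5pb.L. The call of atp5me.S held without library I.3 of Cxxc1 MO or I.2 or II.1 of Ctrl MO and was lost without any one of the other 9 (adjusted p up to 0.0992). Of 67 proteasome subunits, 3 were higher (4.48%) and 14 at an unadjusted p under 0.05 (20.9%), with a median of 0.07. psma3.S, of the core, was at a low level, 4.36 to 5.96 TPM in Cxxc1 MO and 2.47 to 3.38 TPM in Ctrl MO libraries. It changed by 0.68 ± 0.12 (adjusted p 0.00764). psmd14.L, the deubiquitinase of the lid, changed by 0.69 ± 0.16 (adjusted p 0.0463), with 1.16 in biological replicate 1 against 0.22 in biological replicate 2, a difference that did not pass its own test. Its call held without library II.1 of Cxxc1 MO or I.1 or II.1 of Ctrl MO and was lost without any one of the other 9 (adjusted p up to 0.141). psma7.S, of the core, changed by 0.31 ± 0.07 (adjusted p 0.0497). The homeologs psma3.L, psmd14.S and ndufs4.S did not pass the test. Of 93 mitochondrial ribosomal protein genes, 1 was higher (mrpl21.L, 1.08%) and 17 at an unadjusted p under 0.05 (18.3%), with a median of 0.08. Of 87 initiation and elongation factor genes 1 was higher (eef1b2.L, 1.15%) and 11 at an unadjusted p under 0.05 (12.6%), with a median of 0.05. Of 27 other mRNAs that start with a pyrimidine tract in mammals, 2 were higher (7.41%) and 4 at an unadjusted p under 0.05 (14.8%), with a median of 0.07. These lists were drawn up after the values had been seen.

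Ribosomal protein mRNAs were less apart from non-injected embryos. Against NI Ctrl, 174 genes were higher in Cxxc1 MO embryos (0.92%) and 1 was lower (0.00529%), and 10 of the 130 ribosomal protein genes were among the higher ones. The median log2 change of the 130 was 0.16 against NI Ctrl, where the median of all genes was 0.09. It lay 0.07 above that of all genes, while against Ctrl MO it lay 0.24 above. Ctrl MO minus NI Ctrl had a median of -0.10 for the 130, against 0.05 for all genes, and 115 of the 130 changes were negative. Of the 82 genes, all were above NI Ctrl in log2 change and 46 were at an adjusted p under 0.05. The 82 had been selected for high values in these same Cxxc1 MO libraries, so these counts are a description. Over all genes, 3795 were higher and 59 lower against NI Ctrl at an unadjusted p under 0.05 (limma). Ctrl MO minus NI Ctrl itself gave 6 higher genes (0.0317%) and 0 lower (limma, 1171 higher and 122 lower at an unadjusted p under 0.05).

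Several other genes, chosen after their values were seen, are given singly. rnd1.S, which encodes a protein that loosens cell adhesion, had 60.2, 63.1 and 73.3 TPM in Cxxc1 MO libraries of biological replicate 1 and 50.4, 50.0 and 46.9 TPM in Ctrl MO libraries. The other frog, biological replicate 2, gave 82.9, 91.1 and 85.6 TPM in Cxxc1 MO libraries, against 56.6, 59.7 and 50.5 TPM in Ctrl MO libraries (log2 change 0.52 ± 0.06, adjusted p 4.02e-05, limma). nme2.L, a nucleoside diphosphate kinase gene, had 299 to 445 TPM in Cxxc1 MO libraries and 201 to 294 TPM in Ctrl MO libraries (0.60 ± 0.07, adjusted p 3.8e-05). rack1.L, which encodes a scaffold protein of the small ribosomal subunit, changed by 0.60 ± 0.08 (adjusted p 0.000314). acvr1b.L, a type I receptor for activin and nodal signals, had 46.2 to 54.7 TPM in Cxxc1 MO libraries and 31.9 to 43.2 TPM in Ctrl MO libraries (0.44 ± 0.08, adjusted p 0.00764). tcf7.S, a transcription factor of Wnt signalling, changed by 0.27 ± 0.05 (adjusted p 0.00924). Among the 15 largest changes were also 2 entries without a given name, LOC108708564 (0.70 ± 0.14, adjusted p 0.0126) and LOC398702 (0.62 ± 0.13, adjusted p 0.0215). The call of LOC398702 was lost without library I.1, I.2 or II.2 of Cxxc1 MO or II.3 of Ctrl MO (adjusted p up to 0.0715).

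For rhob and mcl1 the homeologs moved in opposite directions. mcl1 encodes a survival protein of the BCL2 family. rhob.S (chromosome 5S, 130825575 to 130827869) had 53.1 to 64.8 TPM in Cxxc1 MO libraries, against 40.5 to 51.1 TPM in Ctrl MO libraries (0.42 ± 0.05, adjusted p 4.02e-05, limma). rhob.L (chromosome 5L, 154736255 to 154739195) had 39.4 to 42.2 TPM in Cxxc1 MO libraries, against 48.2 to 59.9 TPM in Ctrl MO libraries (-0.40 ± 0.06, adjusted p 0.00288). Neither pair of ranges overlapped, and their order was opposite.

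mcl1.S (chromosome 8S, 95397655 to 95403983) had 119 to 126 TPM in Cxxc1 MO libraries of biological replicate 1 and 94.4 to 109 TPM in Ctrl MO libraries, and the log2 change over both frogs was 0.32 ± 0.05 (adjusted p 0.0031). mcl1.L (chromosome 8L, 118288580 to 118294144) had 147 to 149 TPM in Cxxc1 MO libraries of biological replicate 1 and 178 to 212 TPM in Ctrl MO libraries. Values of biological replicate 2 were 102 to 132 TPM in Cxxc1 MO libraries, against 135 to 162 TPM in Ctrl MO libraries (-0.39 ± 0.07, adjusted p 0.00924). Against NI Ctrl the L copies were not lower. rhob.L had 30.3 to 39.2 TPM and mcl1.L 91.9 to 123 TPM in NI Ctrl libraries, and the changes of Cxxc1 MO were 0.19 ± 0.06 (adjusted p 0.136) and 0.38 ± 0.07 (adjusted p 0.013). Ctrl MO itself was above NI Ctrl for both L copies, by 0.59 ± 0.06 for rhob.L (adjusted p 3.1e-05) and 0.77 ± 0.07 for mcl1.L (adjusted p 6.24e-06). The S copies were higher in Cxxc1 MO against both controls (0.56 ± 0.05 for rhob.S and 0.55 ± 0.05 for mcl1.S against NI Ctrl).

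**Figure D4:**
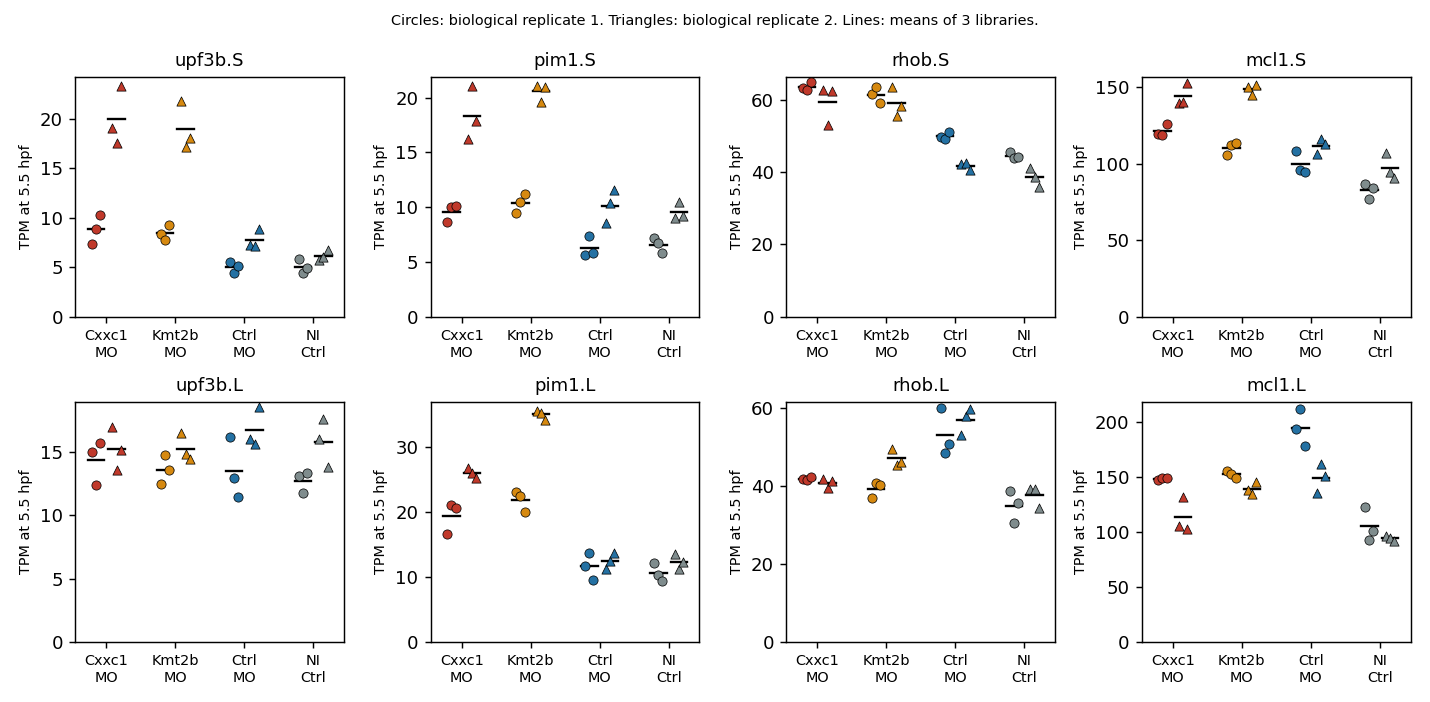
TPM at 5.5 hpf (y axes) of the S (top) and L (bottom) homeologs of upf3b, pim1, rhob and mcl1 in each library of Cxxc1 MO, Kmt2b MO, Ctrl MO and NI Ctrl, with circles for biological replicate 1, triangles for biological replicate 2 and lines for means of 3 libraries. upf3b.L averages 14.8 TPM in Cxxc1 MO and 15.1 TPM in Ctrl MO, while all rhob.L and mcl1.L values of Cxxc1 MO lie below those of Ctrl MO within each frog.

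Over the 82 higher genes, 61 had a homeolog that was tested. In 58 of the 61 the homeolog's change was positive too, and the median over the homeologs was 0.26. Of all genes tested, 73.9% had a positive change and their median was 0.04. In 6 pairs both copies were higher at an adjusted p under 0.05. Thus 12 of the 61 homeologs were themselves among the 82, and their sign was fixed by the selection. Reads of similar copies may also have been divided between them, so the count is a description.

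The other lower entries had low or unsteady levels. LOC108703372 (chromosome 7S, 45148440 to 45152733), a protein-coding gene without a given name, had 7.98, 1.67 and 3.42 TPM in Cxxc1 MO libraries of biological replicate 1, against 7.53, 5.33 and 12.8 TPM in Ctrl MO libraries. The groups overlapped there. In biological replicate 2 it had 5.48, 3.22 and 5.49 TPM in Cxxc1 MO libraries, against 14.9, 13.8 and 13.4 TPM in Ctrl MO libraries, without overlap. The log2 change was -1.18 ± 0.22 (adjusted p 0.00924, limma), and against NI Ctrl it was -1.06 ± 0.22 (adjusted p 0.0175), the 1 lower gene there. LOC121402315 passed the filter on low levels only through Ctrl MO libraries, so its test had to show a difference and its place among the 4 lower genes is a description. This entry, a small nucleolar RNA (chromosome 3S, 37001591 to 37001691), was listed at 0 in all Cxxc1 MO, Kmt2b MO and NI Ctrl libraries, and at 0, 21.1, 0, 10.6, 4.57 and 7.92 TPM in Ctrl MO libraries. No fold is given against a group at 0, and its call (adjusted p 0.0345) held without library I.1 or I.3 of Ctrl MO and was lost without any one of the other 10 (adjusted p up to 0.105).

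The mRNA of cxxc1.S, the copy of the targeted gene that was measured, did not pass the test. cxxc1.S (chromosome 8S, 26214464 to 26220561) had 26.9, 23.3 and 29.7 TPM in Cxxc1 MO libraries of biological replicate 1, against 26.5, 28.5 and 30.6 TPM in Ctrl MO libraries. The other frog, biological replicate 2, gave 20.2, 19.9 and 21.3 TPM in Cxxc1 MO libraries, against 20.3, 21.3 and 18.9 TPM in Ctrl MO libraries, and the log2 change was -0.04 ± 0.06 (adjusted p 0.976, limma). A morpholino that blocks translation need not alter the mRNA, so this level checks neither the labels nor the loss of protein. Of 31 tested genes of the H3K4 methyltransferase complexes 0 were called in either direction (limma, 0 also at an unadjusted p under 0.05), with changes from pagr1.L at -0.11 ± 0.07 to kmt2a.S at 0.09 ± 0.06. The same was true of 10 H3K4 demethylase genes. Of 38 tested genes of readers of H3K4me3 and CpG islands, kmt2e.S, which encodes a PHD finger protein that binds H3K4me3, was the 1 at an adjusted p under 0.05 (2.63%, against 0.434% of all genes tested). It had 17.7 to 26.2 TPM in Cxxc1 MO libraries and 15.0 to 17.5 TPM in Ctrl MO libraries (0.38 ± 0.07, adjusted p 0.00924), while kmt2e.L changed by 0.14 ± 0.07 (adjusted p 0.603).

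The tested genes that start or mark zygotic transcription had medians near that of all genes. Of 43 tested entries of maternal activators, such as sox3 and pou5f3.3, 0 were called, with a median log2 change of 0.01. At an unadjusted p under 0.05 (limma), 2 were higher (4.65%, against 7.54% of all genes) and 0 lower. sox3.L had 468 to 569 TPM in Cxxc1 MO libraries and 476 to 539 TPM in Ctrl MO libraries (0.01 ± 0.05), and sox3.S changed by -0.01 ± 0.06. pou5f3.2, a POU factor gene outside that list, was followed as well. Its L copy, pou5f3.2.L, had 46.6 to 57.7 TPM in Cxxc1 MO libraries and 46.7 to 57.6 TPM in Ctrl MO libraries (0.03 ± 0.07), and pou5f3.2.S changed by -0.14 ± 0.15 at 1.63 to 5.14 TPM. The adjusted p of these 4 was 0.936 or more. ets2.L, an ETS family factor gene, changed by 0.17 ± 0.04 (adjusted p 0.0664). Of 42 tested entries of first zygotic genes, 0 were called and the median was 0.05. Among these 42, 1 was higher (2.38%, against 7.54% of all genes) and 2 were lower (against 0.486%) at an unadjusted p under 0.05 (limma). The entries with the smallest p were ier2.L, an immediate early gene, at 0.47 ± 0.13 (adjusted p 0.110) and bmp4.L, a ventral signal, at -0.26 ± 0.09 (adjusted p 0.345).

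Of 79 maternal mRNAs of oogenesis and meiosis 0 were called, with a median of 0.03 (limma, 9 higher, 11.4% against 7.54% of all genes, and 0 lower at an unadjusted p under 0.05). cdc25a.S, the phosphatase that keeps early cycles short, changed by 0.54 ± 0.13 (adjusted p 0.0771), and zp4.S, an egg coat gene, by 0.36 ± 0.09 (adjusted p 0.0849). cks2.S and cks2.L, which encode a subunit of cyclin-dependent kinases, changed by 0.21 ± 0.07 and 0.22 ± 0.08 (adjusted p 0.257 and 0.289). Among 50 genes of replication and the cell cycle, 2 were higher (4.00%, against 0.434% of all genes tested) and 5 at an unadjusted p under 0.05 (10.0%, against 7.54%), with a median of 0.05. pcna.S, the sliding clamp of DNA polymerases, had 131 to 198 TPM in Cxxc1 MO libraries and 91.3 to 123 TPM in Ctrl MO libraries (0.45 ± 0.08, adjusted p 0.00924). gins1.S, of the replicative helicase, changed by 0.48 ± 0.09 (adjusted p 0.00924), while pcna.L changed by 0.31 ± 0.08 (adjusted p 0.0771) and rrm1.S, of ribonucleotide reductase, by -0.19 ± 0.06 (adjusted p 0.265).

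Lists of damage, immune and folding stress are read against 7.54% of all genes higher at an unadjusted p under 0.05 and 0.434% at an adjusted one. In the list of 31 p53 and damage response genes, mcl1.S was higher and mcl1.L lower (3.23% each, against 0.434% and 0.0211% of all genes). At an unadjusted p under 0.05 (limma), 4 were higher (12.9%) and 2 were lower (against 0.486% of all genes). In the same list gadd45a.S, which p53 induces in mammals, changed by 0.43 ± 0.13 (adjusted p 0.184). Of 14 innate immune genes 0 were called (limma, 3 higher, 21.4%, and 0 lower at an unadjusted p under 0.05), with nfkbia.L at 0.33 ± 0.09 (adjusted p 0.136) and b2m.S at 0.35 ± 0.10 (adjusted p 0.167). Of 25 heat shock and unfolded protein response genes 0 were called (limma, 5 higher, 20.0%, and 0 lower at an unadjusted p under 0.05), with dnajb9.S at 0.24 ± 0.06 (adjusted p 0.110) and hspe1.L, a mitochondrial chaperonin gene, at 0.48 ± 0.15 (adjusted p 0.210). Of 48 Mediator genes 0 were called (limma, 6 higher, 12.5%, and 1 lower at an unadjusted p under 0.05), and likewise 0 of 12 histone entries (1 higher, 8.33%, and 0 lower).

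Markers of the egg and cleavage embryo were high in all libraries. The 15 listed egg and cleavage markers summed to 3773 to 4440 TPM in Cxxc1 MO libraries and 3904 to 4341 TPM in Ctrl MO libraries. Few markers of blood, muscle, nerve, epidermis, follicle or liver passed the filter on low levels (3, 2, 4, 2 and 2 entries), 4 sperm entries did, and 0 of these 17 or of the 15 egg markers were called. At an unadjusted p under 0.05 (limma), 0 of the 17 passed. Of the 15 egg markers, 2 were higher (13.3%, against 7.54% of all genes) and 0 lower. In each library at 5.5 hpf 18120 to 18933 genes reached 1 TPM, and Pearson's r between libraries of 1 group and frog, across genes, which are not independent replicates, was 0.964 to 0.981. The depth of each library cannot be had from TPM.

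The frogs were also fitted alone. The 82 genes had been selected on both frogs together, so that their positive log2 change in each biological replicate was largely fixed by the selection and is a description, with a median of 0.39 in biological replicate 1, 0.47 in the other. Alone, 3 libraries against 3 called few genes. Biological replicate 1 gave 4 higher genes (0.0211%) and 0 lower (limma, 803 and 87 at an unadjusted p under 0.05), and biological replicate 2 gave 12 higher (0.0634%) and 3 lower, and 3 and 9 of the 82 were among the higher ones. The change of upf3b.S was 0.69 in biological replicate 1, and in the other it was 1.26. The test of the difference between frogs called 0 genes (limma, and without adjustment 167 with a larger and 208 with a smaller change in biological replicate 2 at p under 0.05).

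Later in development most of these genes kept a positive change, and a part of them passed the threshold. The log2 change was positive in 79 of the 82 at 6.5 hpf and in all 82 at 7.5 hpf. Their medians were 0.22 and 0.30, against -0.05 and 0.00 for all genes tested at these times. At 6.5 hpf, 29 of the 82 were higher in Cxxc1 MO embryos at an adjusted p under 0.05 (0.523% of all genes tested at that time), and at 7.5 hpf 35 were (0.649%). 23 of the 82 were higher at an adjusted p under 0.05 at all 3 times. They included upf3b.S, whose log2 change was 0.98 ± 0.14 at 5.5 hpf, 1.44 ± 0.16 at 6.5 hpf and 1.38 ± 0.20 at 7.5 hpf. pim1.L changed by 0.85 ± 0.10, 0.85 ± 0.08 and 0.57 ± 0.11 at these times. szrd1.L changed by 0.41 ± 0.06, 0.77 ± 0.06 and 0.79 ± 0.08, and stim1.L, which encodes a calcium sensor of the endoplasmic reticulum, by 0.39 ± 0.06, 0.56 ± 0.06 and 0.66 ± 0.07. acvr1b.L changed by 0.44 ± 0.08, 0.66 ± 0.08 and 0.70 ± 0.12.

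Of the 28 ribosomal protein genes, 5 were at an adjusted p under 0.05 at 6.5 hpf and 11 at 7.5 hpf. The median log2 change of all 130 was 0.28 at 5.5 hpf, 0.06 at 6.5 hpf and 0.11 at 7.5 hpf, while the median of all genes was 0.04, -0.05 and 0.00. Among the lower genes, LOC108703372 (-1.65 and -1.48) and rhob.L (-0.49 and -0.60) were lower at 6.5 and 7.5 hpf too, where 0.549% and 0.495% of all genes were. In the test of the difference of the effect between 7.5 and 5.5 hpf, 0 of the 82 genes passed. Their median difference was -0.13, against -0.03 for all genes tested. The 82 had been selected for their change at 5.5 hpf, which by itself favours a smaller change later, so this median is a description.

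**Figure D5:**
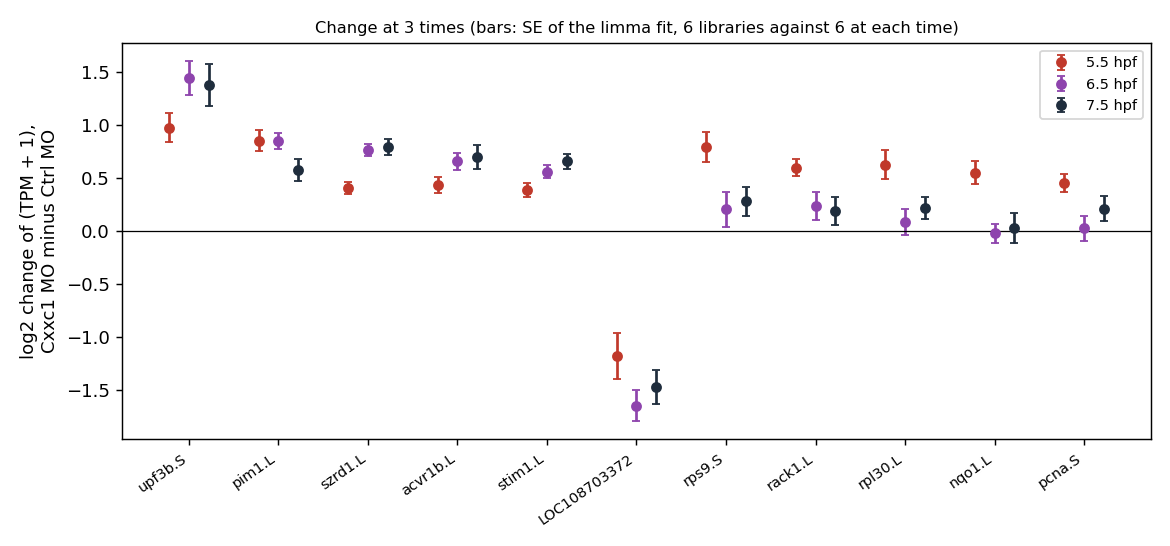
Log2 change of (TPM + 1), Cxxc1 MO minus Ctrl MO (y axis), of 11 genes at 5.5, 6.5 and 7.5 hpf, with bars for the SE of the fit (6 libraries against 6 at each time). upf3b.S stays between 0.98 and 1.44 and LOC108703372 between -1.65 and -1.18, while nqo1.L is at 0.55 at 5.5 hpf and near 0 later.

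In non-injected embryos the genes followed different courses. Between 5.5 and 7.5 hpf 73.6% of all genes tested fell and 7.13% rose in NI Ctrl (median log2 change -0.65). The genes were kept for their level at 5.5 hpf, so those that rose from below that level are not counted. The values are shares, so a fall need not be a loss of mRNA. Of the 82 genes, 41 fell and 22 rose. Of the 28 ribosomal protein genes among them, 3 fell and 15 rose, as did 13 and 79 of all 130, and of the other 54 genes 38 fell and 7 rose.

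Kmt2b MO embryos, which share the Ctrl MO libraries, are given beside them without a reading of likeness, since the genes were chosen for their difference from these same libraries. Kmt2b MO minus Ctrl MO was 0.92 ± 0.14 for upf3b.S, 1.14 ± 0.10 for pim1.L, 1.08 ± 0.12 for rps9, -0.34 ± 0.06 for rhob.L and -1.75 ± 0.22 for LOC108703372, and the ribosomal protein median was 0.27. In the direct comparison of Cxxc1 MO with Kmt2b MO, 0 genes were called (limma, 668 higher and 106 lower at an unadjusted p under 0.05), which does not show that the knockdowns act alike. The differences, Cxxc1 MO minus Kmt2b MO, were 0.06 ± 0.14 for upf3b.S, -0.29 ± 0.10 for pim1.L, -0.24 ± 0.12 for rps9 and 0.57 ± 0.22 for LOC108703372 (adjusted p 0.892 or more).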

How the data were processed

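RNA of whole embryos was depleted of rRNA and sequenced with a directional kit. The authors pseudoaligned reads with kallisto 0.48, added up the isoforms of a gene and deposited the TPM in a table for each biological replicate, with 39668 entries. Their DESeq2 1.42.1 test on counts could not be repeated on TPM. Names were matched to the RefSeq table of assembly 10.1 (38926 of 39668), which gave gene types and coordinates. The 2256 tRNA entries were dropped and TPM rescaled to sum to 1000000. A gene was kept where its TPM averaged 1 or more over the 24 libraries of 5.5 hpf. limma 3.58.1 in R 4.3.3 was fitted to log2(TPM + 1) (4 groups, biological replicate as covariate, trend, 19 residual degrees of freedom), with Benjamini-Hochberg adjustment. Fold changes on this scale understate changes of low genes.

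Contrasts with NI Ctrl and Kmt2b MO came from the same fit, those at 6.5 and 7.5 hpf from like fits, and differences between frogs and times from contrasts of contrasts. Named by rule were the 15 genes with the highest and the 15 with the lowest change at an adjusted p under 0.05 (4 lower existed) averaging 1 TPM or more and with all 6 Cxxc1 MO libraries on the same side of the Ctrl MO mean of their frog, their homeologs, up to 4 members a list at an unadjusted p under 0.01, and cxxc1, kmt2b, pou5f3.2, sox3 and upf3b. The members and lists were chosen with earlier results of these data known. The genes cxxc1.L and kmt2b are not analysed here. 72 entries other than tRNA carry a repeated name. The list of mitochondrially encoded genes had 0 entries. The fit was tested on simulated data. Alternatives were another pseudocount, other filters and scales, other sets of libraries, a replicate block, robust fitting and leaving out each library.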

Additional observations from a re-analysis of the deposited data

Results flagged for a closer look

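In the test of the difference of the Cxxc1 MO effect between 7.5 and 5.5 hpf over 72 libraries, 4 genes passed (limma, adjusted p 0.0479 each), and none of the 4 passed the test at 5.5 hpf (adjusted p 0.484 or more). med31.L, a Mediator subunit gene, had a difference of -0.69, with 8.29 to 11.9 TPM in Cxxc1 MO and 17.3 to 23.3 TPM in Ctrl MO libraries at 7.5 hpf, and 19.8 to 26.0 TPM and 21.8 to 32.2 TPM at 5.5 hpf. not.L, a homeobox gene of the organizer, had a difference of -0.58, with a log2 change of -0.41 at 7.5 hpf and 0.17 at 5.5 hpf. dohh.L, which encodes an enzyme that makes hypusine, had a difference of -0.58 (-0.64 at 7.5 hpf, -0.06 at 5.5 hpf). stard13.S, at 0.932 to 10.1 TPM, had a difference of -0.77 (-0.66 at 7.5 hpf, 0.11 at 5.5 hpf).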

How the results depend on the processing

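TPM hold no counts, so depth could not be weighed, and the median of all genes moved with the scale, from 0.04 to -0.02 with median centring. The 82 higher genes became 49 with no filter on low values, 174 with NI Ctrl as the control, 4 in biological replicate 1 alone, 12 in biological replicate 2 alone, 51 to 121 without single libraries (51 without Cxxc1 MO library II.2), 13 with the log2 rRNA share as a covariate and 146 without NI Ctrl library II.3. These last 2 fits, that with rRNA dropped and all alternatives for the other comparisons and for ribosomal protein genes were chosen after seeing the data. The 4 lower genes became 15 with median centring, 2 with only the 12 libraries compared, 1 against NI Ctrl, 0 in biological replicate 1, 3 to 5 without single libraries and 1 with the rRNA covariate. The 28 ribosomal protein genes became 15 with no filter, 10 against NI Ctrl, 1 in each biological replicate alone, 15 to 31 without single libraries, 4 with the rRNA covariate and 43 without NI Ctrl library II.3, and their median 0.25 to 0.31 without single libraries and 0.15 with the covariate. The cause was not tested. Deviations of same-numbered Cxxc1 MO and Ctrl MO libraries were not correlated across genes (r from -0.10 to 0.07 in 6 pairs). The I.3 libraries of all 4 groups shared the lowest lncRNA shares of biological replicate 1 (7.15% to 7.53%, against 8.73% to 11.2% in its other libraries). The replicate block gave 85 higher and 4 lower genes, and 71 of the 85 were among the 82. Against NI Ctrl rhob.L (0.19) and mcl1.L (0.38) reversed.

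Of the comparison with NI Ctrl, 174 higher and 1 lower became 105 and 3 with no filter, 47 and 6 with protein-coding genes only and 33 and 8 with median centring. At 6.5 hpf, 105 lower became 58 with no filter and 100 higher became 180 with protein-coding genes only and 244 with centring. At 7.5 hpf, 93 lower became 61 with no filter, 183 with protein-coding genes and 263 with centring, and 122 higher became 219 and 323. For the difference between 7.5 and 5.5 hpf, 4 lower became 0 with a pseudocount of 0.1, 16 with no filter and 13 with centring, and 0 higher became 3 with protein-coding genes and 18 with centring.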
